A study of Mus musculus with 12 samples.

Results

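The genes described here are the matrix metalloproteinases (MMPs), the ADAMTS proteases and the tissue inhibitors of metalloproteinases (TIMPs) measured in chondrocytes, which build and keep cartilage, from mouse ribs. Members were chosen by symbol alone, as Mmp, Adamts or Timp followed by a number, leaving out Mmp13, Adamts2, Adamts3 and Adamts14. They came to 37 of the 17922 genes in the expression table: 17 MMPs, 16 ADAMTS proteases and 4 TIMPs. RNA was sequenced from 12 samples in 4 groups of 3. The LDH knockout cells came from mice at postnatal day 5 (P5) of the genotype Col2-Cre:Ldha(fl/fl):Ldhb+/-, which lack lactate dehydrogenase A in Cre-expressing cells and keep an intact Ldhb allele. The Acly knockout cells came from E18.5 embryos of the genotype Col2-Cre:Acly(fl/fl), which lose ATP citrate lyase in those cells. Each knockout was set against control cells from littermates of the same age, whose alleles the sources used here do not give further. All mice were of a mixed background in which C57BL/6 was dominant. Col2-Cre is driven by type II collagen regulatory sequence, which is active in cartilage cells. Cells were freed from rib cartilage by overnight collagenase digestion and kept in serum-containing medium for another day before lysis, so the levels are those of cultured cells.

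MMPs are zinc-dependent proteases that are made as inactive proenzymes and cut collagens, proteoglycans and other matrix proteins outside the cell or at its surface. ADAMTS proteases are secreted relatives with thrombospondin repeats, among them the aggrecanases Adamts4 and Adamts5, which cut the large proteoglycan of cartilage. TIMPs block the active site of MMPs, and Timp3 also blocks several ADAMTS and ADAM proteases. In the growth plate, matrix proteases are known for remodelling cartilage as it is invaded by vessels and replaced by bone. RNA levels say nothing of how much enzyme was activated or inhibited.

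Ldha and Acly followed the labels. Ldhb, labelled +/- in the LDH knockouts, was not lower there (edgeR, log2 fold change 0.37, SE 0.11, adjusted p = 0.115). The Ldhb alleles of the LDH controls are not given, so its level cannot check that label. Ldha was at 894 ± 51.3 normalised counts per 1000000 counts (CPM; SD, n = 3) in the LDH controls and 91.8 ± 7.03 in the knockouts, and Acly was at 187 ± 4.69 in its controls and 69.9 ± 18.8 in its knockouts. The 9 chondrocyte markers summed to 10572 to 12246 CPM in the LDH controls and 19206 to 28918 in the LDH knockouts. Their sums were 8025 to 8753 in the Acly controls and 13447 to 15885 in the Acly knockouts, with none under 3 counts in any group. These sums weigh the most abundant genes most. By gene (edgeR, adjusted p under 0.05), 6 of 8 tested were higher in the LDH knockouts, where 2.49% of all genes passed. In the Acly knockouts 1 of 9 was higher, where 0.136% passed. Between the control groups, 7 of the 9 were higher in the Acly controls and 1 lower, where 55.0% of all genes passed. Acly knockout replicate 2 stood apart on the first principal component, at 35.4 against 60.4 to 70.8 for the other 5 Acly libraries. Y-linked genes summed to 93.0, 102 and 0.590 CPM in the LDH controls and to 0, 0 and 0.0367 CPM in the knockouts, so sex and genotype partly coincide in the LDH set, while both Acly groups held libraries with and without that signal. Nothing in the labels says whether the 3 libraries of a group came from separate animals or litters, so p-values measure the spread between these libraries. In bulk RNA, fewer cells of a type and less RNA per cell cannot be told apart.

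Timp3 and Timp1 were the most abundant members. By TPM, which corrects for transcript length and was used for every comparison of levels between genes, the highest means over the 12 samples were those of Timp3, Timp1, Mmp3, Timp2, Mmp14 and Mmp2, in that order, and these 6 averaged above 100 TPM. The order differed between the E18.5 and P5 groups, for which age, mouse line and any library batch coincide. In the E18.5 groups Timp1 (1076 TPM in the controls and 979 in the knockouts) stood above Timp3 (1035 and 893), and Mmp3 averaged under 100 TPM. In the P5 groups Mmp14 and Mmp2 averaged under 100 TPM. Timp3, which binds to the matrix around the cell, ranked 89 and Timp1, a soluble inhibitor, ranked 125 among all genes. Adamts1, a secreted protease of versican and aggrecan, and Mmp11, an MMP activated inside the cell, came next. The 4 TIMPs together summed to 4158 ± 181 TPM (SD, n = 3) in the LDH controls, 4156 ± 466 in the LDH knockouts, 2388 ± 267 in the Acly controls and 2169 ± 113 in the Acly knockouts. The 17 MMPs summed to 1011 ± 119, 891 ± 257, 626 ± 49.8 and 482 ± 70.3 TPM in the same groups. The 16 ADAMTS genes summed to 61.5 ± 7.77, 66.4 ± 4.0, 143 ± 6.08 and 106 ± 20.4 TPM, with Adamts1 the largest contributor in each group. The inhibitors held more transcripts than the proteases listed here in every group.

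A few genes carried the MMP total, and which ones differed between the P5 and E18.5 groups. Mmp3, or stromelysin 1, which cuts proteoglycans and activates other proMMPs, made up 75.4% of the summed MMP TPM in the LDH controls and 77.2% in the LDH knockouts, but 14.5% in the Acly controls and 3.93% in the Acly knockouts (means of 3 libraries). Without Mmp3 the order of the groups turned around: the other 16 MMPs summed to 248 ± 34.2 and 191 ± 14.2 TPM in the P5 controls and knockouts and to 534 ± 30.9 and 465 ± 80.5 TPM in the E18.5 ones. Mmp14, the membrane-bound collagenase that activates proMmp2, led the MMPs in both E18.5 groups, at 226 TPM in the controls and 219 in the knockouts. Mmp2, a gelatinase, followed there with 154 and 118 TPM.

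**Figure D1:**
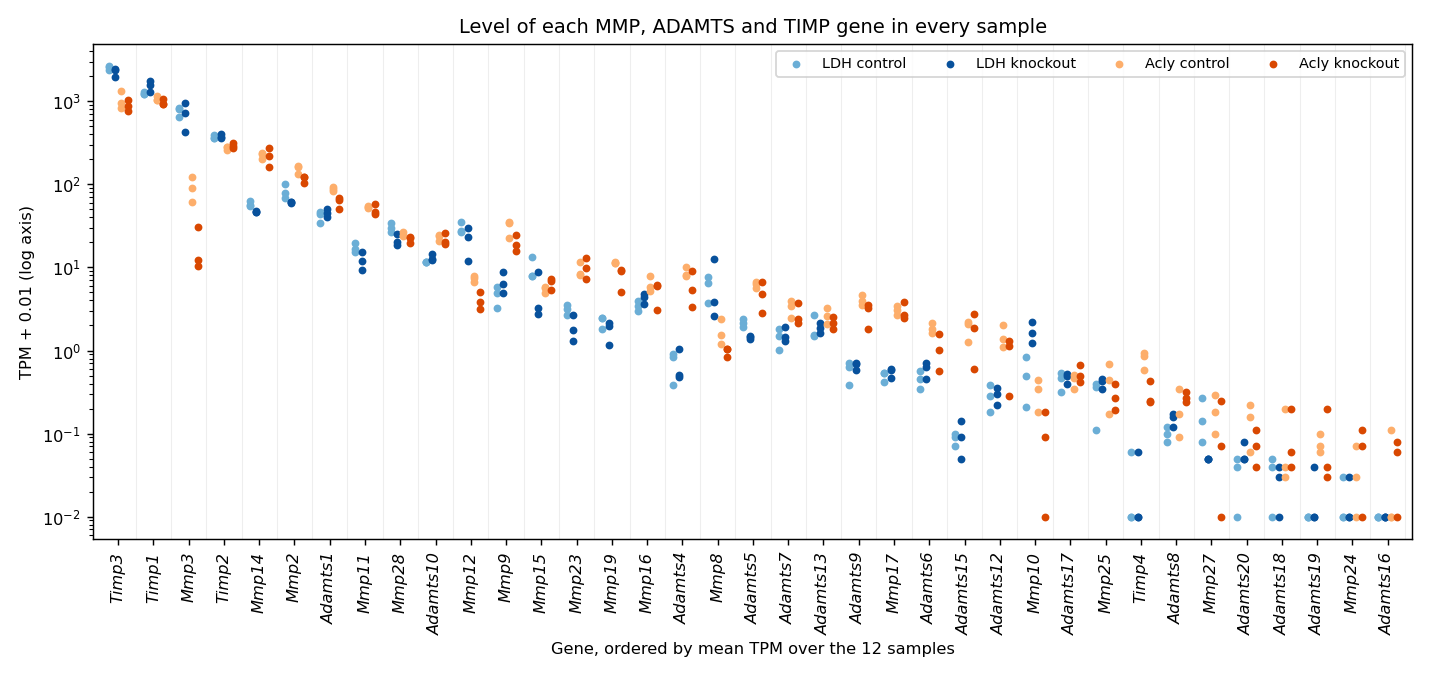
Deposited TPM of each of the 37 genes in each of the 12 samples, on a log axis after adding 0.01, with genes ordered by their mean over all samples and points coloured by group. Timp3 and Timp1 lie highest, Mmp3 separates the P5 from the E18.5 samples, and 14 genes average under 1 TPM.

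Detection was set at 3 counts or more in at least 1 library of a group, a floor that corresponds to 0.104 to 0.118 CPM and covers counting error only. By that rule 33 of the 37 genes were detected in the LDH controls, 31 in the LDH knockouts and 37 in both E18.5 groups, and 31 were detected in all 4. Adamts16, Adamts19, Mmp24 and Timp4 were under the floor in both P5 groups, and Adamts18 and Mmp27 were under it in the LDH knockouts as well. Genes with at least 10 counts in all 3 libraries numbered 26 in the LDH controls and 28 in each other group, and 26 genes met this in every group. Adamts16, Adamts18, Adamts19, Adamts20, Mmp24 and Mmp27 met it in none, entered no main test, and stayed below 0.7 CPM in every library. The remaining 31 passed the filter on low counts in at least 1 main comparison. With no such filter, edgeR called Adamts19 (log2 fold change 5.09, adjusted p = 0.0277) and Adamts20 (2.68, adjusted p = 0.0181) higher in the Acly than in the LDH controls. Those calls rested on 0 to 19 counts per control library.

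The 3 MMP genes that stood highest in the P5 controls relative to the E18.5 controls, Mmp3, Mmp12 and Mmp8, lie close together. In the RefSeq annotation of mouse chromosome 9 the genes stand in the order Mmp12, Mmp1b, Mmp3, Mmp1a, Mmp10, Mmp8 and Mmp27, with a long noncoding gene between Mmp10 and Mmp8. Promoter windows of 300 bases (250 before to 50 after the annotated start, RefSeq on GRCm38.p6) were listed for 23 of the 37 members, as 25 windows, and were searched for the AP-1 motif TGANTCA, which reads the same on both strands. It stood in 3 member windows, those of Mmp3, Mmp10 and the downstream of the 2 listed starts of Mmp12, against 7.81% of all 32851 windows in the table. They are shown because these genes lie in the same cluster and hold the motif at similar distances from the start, at bases -46 to -40 in Mmp3, -63 to -57 in Mmp10 and -44 to -38 in Mmp12. Capitals mark the motif, and all 3 are on the plus strand, at chr9:7445572-7445871, chr9:7502092-7502391 and chr9:7347124-7347423.
Mmp3: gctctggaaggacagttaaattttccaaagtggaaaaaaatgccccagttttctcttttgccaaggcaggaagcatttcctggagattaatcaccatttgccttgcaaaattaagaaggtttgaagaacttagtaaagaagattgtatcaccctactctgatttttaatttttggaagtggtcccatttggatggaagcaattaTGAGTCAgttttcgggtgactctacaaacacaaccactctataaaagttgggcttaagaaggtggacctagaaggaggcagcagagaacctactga
Mmp10: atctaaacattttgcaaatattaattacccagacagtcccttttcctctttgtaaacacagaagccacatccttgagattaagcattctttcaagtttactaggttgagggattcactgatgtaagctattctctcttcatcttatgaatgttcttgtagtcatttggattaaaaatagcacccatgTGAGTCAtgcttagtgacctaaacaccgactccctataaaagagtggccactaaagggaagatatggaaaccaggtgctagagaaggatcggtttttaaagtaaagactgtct
Mmp12: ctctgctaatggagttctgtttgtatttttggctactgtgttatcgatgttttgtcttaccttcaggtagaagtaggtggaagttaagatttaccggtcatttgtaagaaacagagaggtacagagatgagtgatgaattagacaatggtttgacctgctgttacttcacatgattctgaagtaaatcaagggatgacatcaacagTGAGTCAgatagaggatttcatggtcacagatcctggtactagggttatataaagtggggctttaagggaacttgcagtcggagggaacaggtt
The windows of Mmp8 and of the upstream start of Mmp12 did not hold these letters. A match is a description of the sequence and no measure of binding.

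The LDH comparison asked what loss of lactate dehydrogenase in chondrocytes does to their RNA at P5. None of the 28 members tested passed the threshold (edgeR's quasi-likelihood test, Benjamini-Hochberg adjusted p under 0.05), where 2.49% of the 13321 genes tested did. At an unadjusted p under 0.05 there were 10 members, against 19.6% of all tested genes. The 3 on the higher side were Mmp9, Mmp10 and Timp1 (9.79% of all genes), and the 7 on the lower were Adamts5, Mmp2, Mmp11, Mmp14, Mmp15, Mmp23 and Mmp28 (9.83%). Values of the 3 knockouts and 3 controls did not overlap for 3 members on the higher side (Adamts10, Mmp10 and Timp1) and 4 on the lower (Adamts5, Mmp2, Mmp14 and Mmp28), where 12.2% and 12.1% of all tested genes did so. The median log2 fold change was 0.06 over the members and 0.01 over all tested genes.

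Among the abundant proteases, Mmp14 was at 131, 110.1 and 125 CPM in the LDH controls and at 98.8, 100.3 and 99.3 CPM in the knockouts. All 3 knockouts lay below all 3 controls and close to each other, with a log2 fold change of -0.30 (SE 0.08, adjusted p = 0.0893). Mmp2 was at 171, 111 and 139 CPM in the controls and at 103, 108 and 104 CPM in the knockouts. The controls were spread and replicate 2 came near the knockouts without overlapping them (log2 fold change -0.42, SE 0.13, adjusted p = 0.122). Mmp11 was at 23.1, 17.1 and 20.7 CPM in the controls and at 14.8, 11.6 and 18.4 CPM in the knockouts. Knockout replicate 3 lay above control replicate 2, so the groups overlapped (-0.44, SE 0.17, adjusted p = 0.199).

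Mmp3, the inhibitors and Adamts1 did not pass in the LDH set. Mmp3 was at 782, 614 and 835 CPM in the LDH controls and at 717, 957 and 418 CPM in the knockouts. The knockouts held both the highest and the lowest of the 6 values, and the log2 fold change was -0.09 (SE 0.25, adjusted p = 0.871). Timp3 was at 6133, 6554 and 7141 CPM in the controls and at 5185, 6403 and 6317 CPM in the knockouts, overlapping (-0.15, SE 0.11, adjusted p = 0.489). Timp1 was at 544, 564 and 592 CPM in the controls and at 593, 737 and 788 CPM in the knockouts. All 3 knockouts lay above all 3 controls, the lowest by a small margin (0.32, SE 0.11, adjusted p = 0.161). Timp1 lies on chromosome X, and its highest control, replicate 3, was the LDH control with little Y-linked signal (0.590 CPM). Sex and genotype partly coincide in this set, and the effect of sex on Timp1 was not tested. Timp2, the inhibitor that also bridges Mmp14 and proMmp2 at the cell surface, was at 711, 765 and 754 CPM against 822, 752 and 739 CPM, overlapping (0.05, SE 0.08, adjusted p = 0.78). Adamts1 was at 118, 123 and 96.8 CPM in the controls and 125, 115 and 137 CPM in the knockouts, also overlapping (0.15, SE 0.10, adjusted p = 0.44).

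**Figure D2:**
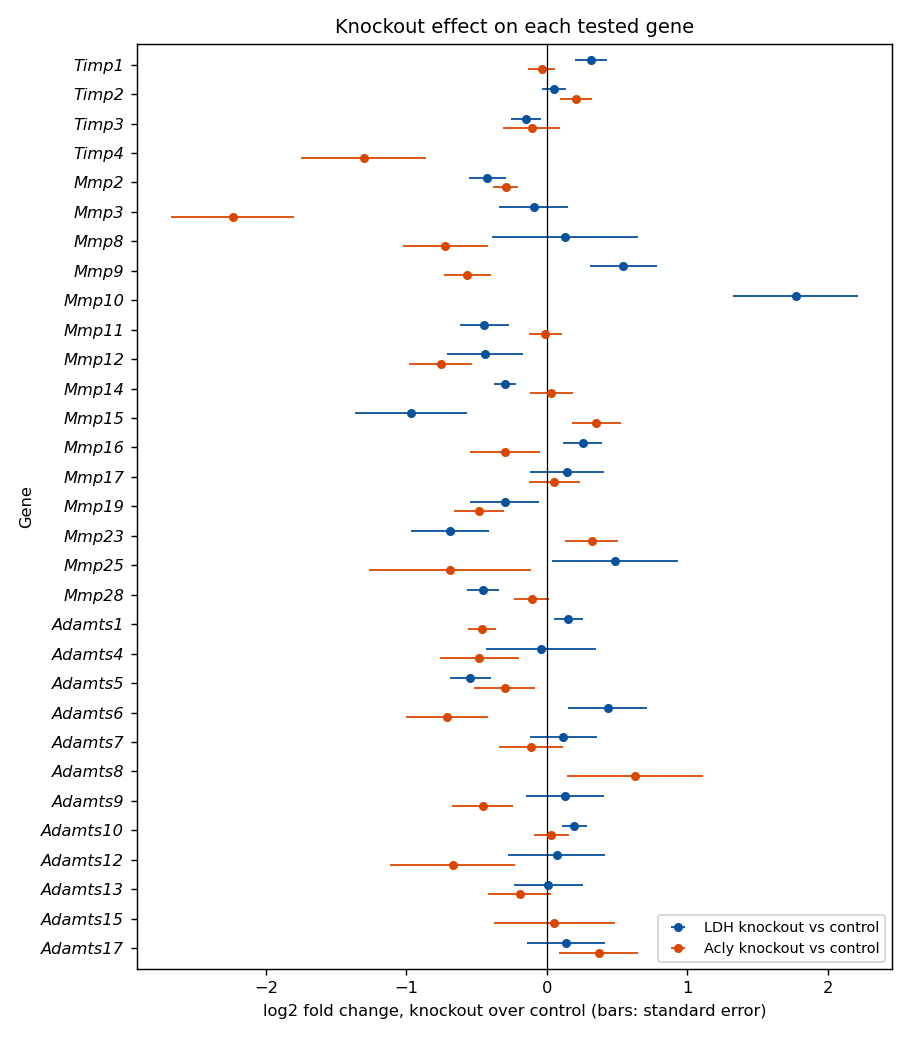
Log2 fold change of knockout over control with its standard error for each member tested, for the LDH knockout at P5 and the Acly knockout at E18.5, from edgeR fits of 6 samples each. No member passed the adjusted threshold in either comparison, and Mmp3 in the Acly set (-2.24) and Mmp10 in the LDH set (1.77) lie furthest from 0 on their sides.

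Of the lower-level members, 5 are given here that were chosen after their values were seen, 4 because they were near the threshold or passed under another setting, and Mmp9 as a gelatinase among the members with an unadjusted p under 0.05. Mmp10, stromelysin 2, was at 0.448, 0.749 and 0.197 CPM in the LDH controls and at 1.54, 2.16 and 1.12 CPM in the knockouts, on 5 to 20 and 29 to 55 counts. All knockouts lay above all controls (1.77, SE 0.44, adjusted p = 0.0687). Adamts5 was at 10.7, 8.27 and 10.1 CPM in the controls and at 6.88, 6.88 and 6.13 CPM in the knockouts. Again the groups did not overlap (-0.54, SE 0.15, adjusted p = 0.0864). Mmp28, the secreted MMP epilysin, was at 64.7, 55.0 and 53.3 CPM in the controls and at 40.0, 37.3 and 49.1 CPM in the knockouts, without overlap (-0.45, SE 0.12, adjusted p = 0.073). Mmp15, a membrane-type MMP, was at 18.8, 17.96 and 33.5 CPM in the controls and at 7.96, 6.84 and 21.2 CPM in the knockouts. Replicate 3 was the highest of its group on both sides, and the groups overlapped (-0.97, SE 0.40, adjusted p = 0.219). Mmp9, the gelatinase known in cartilage for its role where vessels and osteoclasts invade, was at 10.0, 8.27 and 6.00 CPM against 15.6, 11.4 and 8.49 CPM, overlapping (0.54, SE 0.24, adjusted p = 0.247).

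These calls near the threshold moved with the test and with single libraries. DESeq2 on the same counts called 5 members: Mmp10 higher, and Adamts5, Mmp2, Mmp14 and Mmp28 lower in the knockouts (7.04% of all genes it tested). Without LDH knockout replicate 3, edgeR called Mmp10 (1.98, adjusted p = 0.0361), Mmp15 (-1.66, adjusted p = 0.0113) and Mmp28 (-0.58, adjusted p = 0.0151) along with 7.91% of all genes. Without LDH control replicate 2 it called Mmp2 (-0.57, adjusted p = 0.0351) along with 1.14% of all genes. Beside these members, the summed CPM of 6 osteoblast markers was 41.8 to 56.8 in the LDH controls and 16.4 to 24.8 in the knockouts, with Dmp1 under 3 counts in both. Of the 4 osteoblast markers tested, 3 had a fold change below 0 and 1 above. Of these 4, 1 passed the threshold, on the lower side, where 2.49% of all genes passed. The sum of 8 osteoclast markers was 107 to 128 CPM in the controls and 80.8 to 100.1 CPM in the knockouts, nearly all of it Ctsk. Calcr and Ocstamp were under 3 counts in both groups and Dcstamp in the controls. Only 4 of the 8 were tested, 2 with a fold change above 0 and 2 below, and none passed the threshold. The 8 fibroblast and perichondrium markers summed to 250 to 431 CPM in the controls and 194 to 253 CPM in the knockouts, with 6 fold changes below 0, none past the threshold and 3 lower at an unadjusted p under 0.05 (median -0.37). The 5 adipocyte markers rose, all 5 of them past the threshold, from 1.38 to 2.39 CPM in the controls to 13.4 to 54.4 CPM in the knockouts. The part of these cells in the members' values was not tested.

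The Acly comparison asked the same of the loss of ATP citrate lyase at E18.5. None of the 30 members tested passed the threshold, where 0.136% of the 13973 genes tested did. At an unadjusted p under 0.05 there were 9, against 15.8% of all tested genes (7.26% higher and 8.57% lower), and all 9 were on the lower side: Adamts1, Adamts6, Mmp2, Mmp3, Mmp8, Mmp9, Mmp12, Mmp19 and Timp4. The 3 knockouts lay below the 3 controls without overlap for 9 members and above them for none, where 12.4% and 9.73% of all tested genes did so. Of the 30 fold changes 9 were above 0, against 49.7% of all tested genes, and their median was -0.24 against -0.00178 over all tested genes. By family, the median was -0.30 over 14 MMPs, -0.25 over 12 ADAMTS genes and -0.07 over 4 TIMPs.

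Mmp3 had the largest fold change of the members tested in this set. It was at 55.2, 76.2 and 107 CPM in the Acly controls and at 10.6, 29.9 and 9.26 CPM in the knockouts. Every knockout lay below every control, and knockout replicate 2 was the highest of the knockouts (log2 fold change -2.24, SE 0.44, adjusted p = 0.119). Mmp12, the macrophage elastase, was at 5.97, 6.43 and 6.57 CPM in the controls and at 3.32, 4.91 and 2.86 CPM in the knockouts. The controls were close together, and replicate 2 was again the highest knockout (-0.75, SE 0.22, adjusted p = 0.242). Mmp8, the neutrophil collagenase, was at 1.49, 2.74 and 1.85 CPM against 1.24, 1.38 and 1.03 CPM, without overlap and with the same replicate highest (-0.72, SE 0.30, adjusted p = 0.304). Without Acly knockout replicate 2, Mmp3 passed the threshold at -2.99 (adjusted p = 0.000475), as did Mmp12 at -1.03 (adjusted p = 0.0257) and 0.933% of all genes. Mmp3 also passed when all 12 samples shared 1 fit (adjusted p = 0.0463), with 0.218% of all genes. DESeq2 called Mmp3 and Adamts1, and 1.77% of all genes.

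**Figure D3:**
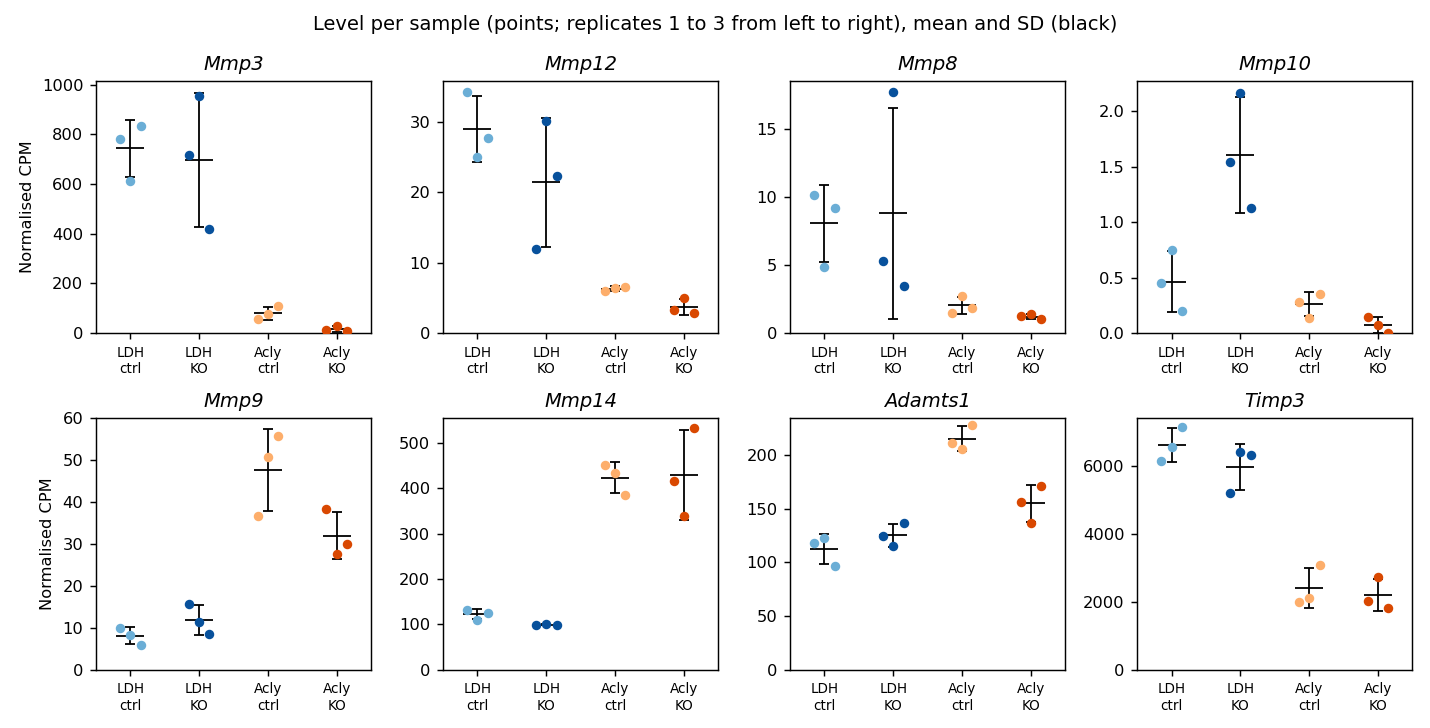
Normalised CPM of Mmp3, Mmp12, Mmp8, Mmp10, Mmp9, Mmp14, Adamts1 and Timp3 in each sample by group, each panel on its own linear axis from 0, with the group mean and its SD (n = 3). Mmp3 stands at 418 to 957 CPM in the P5 samples and at 9.26 to 107 CPM in the E18.5 samples, and the replicates of the Acly knockout lie below their controls for Mmp3, Mmp12, Mmp8 and Adamts1.

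Adamts1 was at 211, 206 and 228 CPM in the Acly controls and at 157, 137 and 171 CPM in the knockouts. The groups were well apart relative to the spread within each, yet the adjusted p was 0.159 (log2 fold change -0.46, SE 0.10). Mmp2 was at 210.2, 239 and 245 CPM in the controls and at 189, 179 and 193 CPM in the knockouts, without overlap (-0.29, SE 0.09, adjusted p = 0.249). Adamts9, a secreted versican-cutting protease, was at 12.2, 14.7 and 13.5 CPM against 11.8, 6.22 and 11.2 CPM, again without overlap. Adamts4 was at 14.95, 17.4 and 14.8 CPM in the controls and at 9.65, 6.84 and 17.1 CPM in the knockouts, and Adamts15 at 5.65, 5.56 and 3.44 CPM against 7.71, 1.82 and 5.59 CPM. Both overlapped, and replicate 2 was the lowest knockout for Adamts4, Adamts9, Adamts15 and Adamts1 alike. Mmp9, chosen after its values were seen, was at 36.8, 50.7 and 55.6 CPM in the controls and 38.3, 27.7 and 29.9 CPM in the knockouts, overlapping (-0.57, SE 0.17, adjusted p = 0.244).

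The other abundant members showed no separation in the Acly set. Mmp14 was at 451, 434 and 385 CPM in the controls and at 415, 338 and 534 CPM in the knockouts, which held both extremes (0.03, SE 0.15, adjusted p = 0.922). Mmp11 was at 57.6, 54.5 and 59.1 CPM against 47.1, 56.8 and 64.3 CPM (-0.01). Timp3 was at 2004, 2114 and 3068 CPM in the controls and at 2032, 2737 and 1821 CPM in the knockouts (-0.11, SE 0.20, adjusted p = 0.8). Values overlapped for all 3. Timp1 was at 433, 450.4 and 427 CPM against 383, 426 and 453 CPM, and Timp2 at 476, 488 and 507 CPM against 499, 638 and 538 CPM, with overlap for both. Timp4, the least abundant inhibitor, was at 0.639, 0.591 and 0.391 CPM on 11 to 18 counts in the controls and at 0.283, 0.182 and 0.177 CPM on 5 to 8 counts in the knockouts (-1.30, SE 0.44, adjusted p = 0.259).

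Marker lists of other cell types were read in the same libraries. The 8 markers of fibroblasts and perichondrium, the fibrous layer around cartilage, summed to between 2938 and 3366 CPM in the Acly controls, to 2704 and 2745 CPM in knockout replicates 1 and 3, and to 950 CPM in knockout replicate 2. All 8 had a fold change below 0 and none passed the threshold. In replicate 2, where this list was lowest, Adamts1, Adamts4, Adamts9 and Adamts15 were the lowest of the knockouts and Mmp3, Mmp12, Mmp8, Timp2 and Timp3 the highest. The 8 skeletal muscle markers summed to 221 to 301 CPM in the controls and 107 to 247 CPM in the knockouts, the lowest again being replicate 2, and none of the 8 passed. The 8 macrophage markers summed to 138 to 153 CPM in the controls and 129 to 185 CPM in the knockouts, and the 9 neutrophil markers to 2.45 to 5.14 CPM and 0.637 to 2.80 CPM. The osteoclast list summed to 160 to 199 and 159 to 199 CPM. The 6 osteoblast markers summed to 127 to 139 CPM in the controls and 86.4 to 122 CPM in the knockouts. Of the 5 of them tested, 4 had a fold change below 0 and none passed. The endothelial list summed to 102 to 119 and 112 to 137 CPM, and the adipocyte list to 10.6 to 36.8 and 19.6 to 46.4 CPM. The part of these cells in the members' values was not tested.

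The knockouts were then set against each other by testing the difference of their effects in 1 fit of all 12 samples. The deleted gene and the age coincide in this design and cannot be told apart. None of the 31 members tested passed the threshold, where 0.161% of the 14251 genes tested did, and 8 had an unadjusted p under 0.05 against 13.0% of all tested genes. The LDH effect was the more positive for 6 (7.29% of all genes), namely Adamts1, Adamts6, Mmp3, Mmp9, Mmp10 and Timp1, and the more negative for Mmp15 and Mmp23, a membrane-anchored MMP (5.73%). For Mmp3 the difference of log2 fold changes was 2.17 (SE 0.55, adjusted p = 0.159), and without Acly knockout replicate 2 it was 2.90 and passed (adjusted p = 0.0201), with 0.173% of all genes. Without LDH knockout replicate 3 the difference for Mmp15 passed, with 0.991% of all genes. For Adamts1 it was 0.63 (SE 0.15, adjusted p = 0.14) and for Mmp10 3.57 (SE 0.94, adjusted p = 0.175), both of which DESeq2 called, with 1.50% of all genes. The Mmp10 value rests on 0 to 10 counts per Acly library.

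The levels in the E18.5 and P5 controls differed for most members. Of 31 tested, 26 passed the threshold, 18 higher in the Acly controls and 8 lower, where 55.0% of all genes tested passed, 29.4% higher and 25.7% lower. All 12 tested ADAMTS genes had a fold change above 0, as had 51.1% of all genes, with 9 of them past the threshold and none in the other direction. That of Adamts17 was near 0 (log2 fold change 0.004, SE 0.27), and its sign turned under DESeq2 and some other settings. Among the 15 tested MMPs 8 were higher in the Acly controls and 5 lower, and of the 4 TIMPs 3 were lower and Timp4 was higher. Adamts8, Adamts13, Adamts17, Mmp10 and Mmp25 did not pass. The median log2 fold change was 0.83 over the members and 0.02 over all tested genes. Age, mouse line and any library batch coincide here and cannot be told apart.

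On the lower side in the Acly controls stood 3 neighbours on chromosome 9 and the abundant inhibitors. Mmp3, at 55.2 to 107 CPM in the Acly controls and 614 to 835 CPM in the LDH controls, was lower in every E18.5 library (log2 fold change -3.23, SE 0.41, adjusted p = 2.93e-05), and ranked 1797 against 177 among all genes by TPM. Mmp12 was at 34.2, 25.0 and 27.8 CPM in the LDH controls and 5.97 to 6.57 CPM in the Acly controls (-2.20, SE 0.28, adjusted p = 2.72e-05). Mmp8 was at 10.2, 4.83 and 9.16 CPM in the LDH controls and 1.49 to 2.74 CPM in the Acly controls (-1.99, SE 0.51, adjusted p = 0.00485). Their neighbour Mmp10 did not pass (-0.84, SE 0.60, adjusted p = 0.253), and Mmp27 was too low for the main test. Timp3 was lower by a log2 fold change of -1.46 (SE 0.17, adjusted p = 1.62e-05), Timp2 by -0.60 (SE 0.09, adjusted p = 0.000121) and Timp1 by -0.38 (SE 0.10, adjusted p = 0.00685). For each of these inhibitors, all 3 Acly controls lay below all 3 LDH controls. Mmp15 (-1.02, adjusted p = 0.0274) and Mmp28 (-0.42, adjusted p = 0.0106) were the other members on this side. Mmp15 lost the call without LDH control replicate 3, Acly control replicate 2 or Acly control replicate 3, and Mmp28 without LDH control replicate 1.

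**Figure D4:**
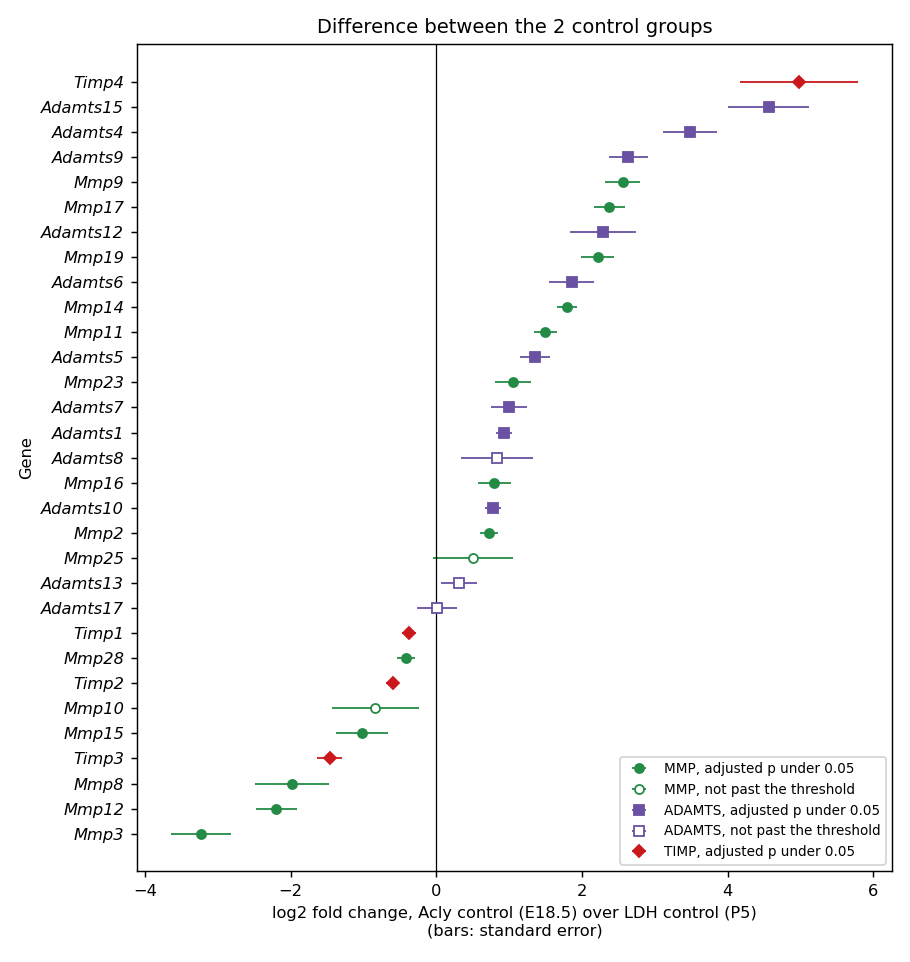
Log2 fold change of the Acly controls (E18.5) over the LDH controls (P5) with its standard error for the 31 tested members, from the edgeR fit of 12 samples, with filled points where the adjusted p is under 0.05. All tested ADAMTS genes lie to the right of 0 except Adamts17, which lies almost on it (0.004, SE 0.27). Mmp3, Mmp12, Mmp8 and Timp3 lie furthest to the left. The point of Timp4 depends on the prior count of the fit, since both P5 groups were under the floor.

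On the higher side stood 9 ADAMTS genes, 8 MMPs and Timp4. Adamts15, a protease able to cut versican, was at 0.224, 0.225 and 0.158 CPM in the LDH controls, on 4 to 6 counts, and at 5.65, 5.56 and 3.44 CPM in the Acly controls (4.56, SE 0.56, adjusted p = 2.1e-05). The aggrecanase Adamts4 was at 1.64, 1.76 and 0.790 CPM against 14.95, 17.4 and 14.8 CPM (3.48, SE 0.38, adjusted p = 7.13e-06). Adamts9 was at 2.87, 2.21 and 1.38 CPM against 12.2, 14.7 and 13.5 CPM (2.64, SE 0.27, adjusted p = 5.04e-06). For all 3, every Acly control lay above every LDH control. Mmp14 was higher by 1.79 (SE 0.14, adjusted p = 6.41e-07), Mmp11 by 1.49 (SE 0.16, adjusted p = 6.31e-06), Adamts1 by 0.93 (SE 0.11, adjusted p = 1.39e-05) and Mmp2 by 0.72 (SE 0.12, adjusted p = 0.000293) on the log2 scale. Adamts5, Adamts6, Adamts7, Adamts10, Adamts12, Mmp9, Mmp16, Mmp17, Mmp19 and Mmp23 were the other testable genes on this side, with log2 fold changes between 0.78 and 2.56, of which Mmp16 lost its call without Acly control replicate 2. Timp4 reached at most 1 count in any P5 library and 11 to 18 counts in the Acly controls, and no fold is given.

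Marker genes of other cell types differed between the control groups too. The fibroblast and perichondrium list summed to 250 to 431 CPM in the LDH controls and 2938 to 3366 CPM in the Acly controls, the macrophage list to 38.4 to 54.9 and 138 to 153 CPM, the endothelial list to 15.4 to 22.8 and 102 to 119 CPM, and the muscle list to 12.9 to 26.3 and 221 to 301 CPM, with all 8 genes of each list past the threshold on the higher side. The osteoblast list summed to 41.8 to 56.8 and 127 to 139 CPM, the osteoclast list to 107 to 128 and 160 to 199 CPM, and the adipocyte list to 1.38 to 2.39 and 10.6 to 36.8 CPM. The neutrophil list was low in both, at 4.27 to 6.08 and 2.45 to 5.14 CPM, and all 5 of its tested genes had a fold change below 0, 2 of them past the threshold. Mmp8, named for neutrophils, was lower in the Acly controls as well, and Mmp12, named for macrophages, was lower there while the macrophage list was higher. The part of these cells in the members' levels was not tested. With library totals in place of TMM scaling the median of all genes moved from 0.02 to 0.19 and the split of all calls from 4184 higher and 3660 lower to 5492 and 2091. Under that scaling Timp1, Mmp15 and Mmp28 no longer passed, while the other lower calls and the 18 higher calls kept their direction and passed.

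Genes that work with these proteases were taken from lists of partners, relatives and substrates. Of 25 genes that activate, inhibit or clear metalloproteinases, A2m, a broad protease inhibitor of plasma, rose in the LDH knockouts from 9.01 ± 1.5 to 26.2 ± 12.7 CPM (SD, n = 3; log2 fold change 1.54, adjusted p = 0.0365), and the other 24 did not pass, where 2.49% of all genes did. At an unadjusted p under 0.05 there were 7 (6 higher), against 19.6% of all genes. A2m lost its call without LDH knockout replicate 2 or when any 1 of the 3 LDH controls was left out. None of the 25 passed in the Acly set (0.136% of all genes), where 4 had an unadjusted p under 0.05, against 15.8% of all genes. Of 15 tested ADAM and ADAMTS-like relatives, Adam12, a transmembrane ADAM, fell in the LDH knockouts from 33.9 ± 2.81 to 23.9 ± 1.01 CPM (-0.50, adjusted p = 0.0258). That call held under 6 of 15 alternatives and was lost without LDH knockout replicate 1 or 2 or LDH control replicate 1 or 3, with limma on FPKM and with all 12 samples in 1 fit. None of 17 relatives passed in the Acly set, where 5 had an unadjusted p under 0.05, beside the same shares of all genes. The median log2 fold change of the partners was 0.09 in the LDH and -0.03 in the Acly set, and that of the relatives -0.04 in each.

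Some matrix substrates changed in each knockout. Of 19 substrates tested in the LDH set 6 passed, where 2.49% of all genes did, and 5 of them rose: Thbs1, or thrombospondin 1 (1.22), Acan, the aggrecan core protein (1.22), Matn3, a matrilin (1.83), Col10a1, the collagen of hypertrophic cartilage (1.70), and Col2a1, the main cartilage collagen (1.02), all as log2 fold changes. Col1a2, a chain of type I collagen, fell (-1.004). In the Acly set, where 0.136% of all genes passed, 3 of 18 rose, namely Comp, a cartilage matrix protein (1.03), Col2a1 (1.05) and Col10a1 (1.02), and none fell. All 6 calls in the LDH set, and those of A2m and Adam12, were lost with the Y-linked level as a covariate, which left larger errors. The log2 fold changes were then 1.50 for Acan, 1.34 for Thbs1, 1.29 for Matn3, 2.22 for Col10a1, 0.86 for Col2a1, -0.82 for Col1a2, 1.32 for A2m and -0.64 for Adam12. Col2a1, Col10a1 and Col1a2 also lost their calls without LDH control replicate 3, and Col1a2 without LDH knockout replicate 1 or 2. The 3 calls in the Acly set were lost when any 1 of the 3 Acly controls was left out. Col2a1 and Col10a1 also lost theirs without knockout replicate 3, and Col10a1 without knockout replicate 1. Col10a1 held under 5 of 15 alternatives. Its call was also lost with library totals, limma on FPKM, all 12 samples in 1 fit and the Y-linked covariate. Comp lost its call with all 12 samples in 1 fit, and Col2a1 with the replicate block. The median over the substrates was 0.15 in the LDH and -0.05 in the Acly set. Between the control groups 18 of the 25 partners passed (12 higher in the Acly controls), as did all 17 relatives (16 higher) and 17 of the 19 substrates (12 higher), beside the 55.0% of all genes.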

How the data were processed

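RNA of 12 samples was measured by sequencing of polyadenylated RNA, per the labels' protocols. The deposited table gives a read count, an FPKM and a TPM per gene and sample, per the file headers. HISAT2 2.0.4 and the build mm9 are named per the submitters' processing notes, and the counter, annotation and use of strand are not given in the sources used here. The deposited counts are not all whole, so they were taken to be expected counts, and were rounded. The authors' 12 average columns were not used. Genes that overlap another expressed gene, such as Mmp23 with Mib2 and Mmp19 with Tmem198b, are uncertain, as are genes that resemble a paralog.

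Libraries held 26362400 to 28154100 counts. Per-sample CPM was scaled by TMM over all 12 samples, and TPM as deposited by the authors was used only for levels. Tests were edgeR 4.0.16 quasi-likelihood tests in R 4.3.3 (TMM, filterByExpr, two-sided, Benjamini-Hochberg over all tested genes, threshold 0.05), with 6 samples per knockout comparison and 12 for the others. Those of the knockout comparisons and of their difference were also run on simulated counts, whose outcome is not given here. Alternatives were DESeq2 1.42.0, other scalings, no filter, limma 3.58.1 on log2 of the deposited FPKM plus 0.1 or 1, a replicate block, left-out libraries and a Y-linked covariate. Members and lists were chosen with earlier results of these data known. Shown in full were members past a threshold in a knockout comparison or the difference (none), the 8 of highest mean TPM, and the 3 of largest fold in each direction between controls with at least 1 CPM on average. Promoter sequences are RefSeq's, on GRCm38.p6, and no coordinates were converted.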

Additional observations from a re-analysis of the deposited data

How the results depend on the processing

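Against 0 members past the threshold in each knockout comparison and in the difference, DESeq2 gave 5 in the LDH set, 2 in the Acly set and 2 for the difference. Leaving out 1 library at a time gave 0 to 3, 0 to 2 and 0 to 1, and 24 to 27 against 26 between the control groups. With no filter on low counts, Adamts19 and Adamts20, which entered no main test, also passed between the control groups. All 12 samples in 1 fit gave 1 in the Acly set (Mmp3). With the replicate number as a block the count was 2 in the LDH set, Mmp10 (1.84, adjusted p = 0.0354) and Mmp15 (-1.08, adjusted p = 0.0121). Same-numbered libraries did not deviate together (their correlations ran from -0.159 to 0.049 for LDH and from -0.222 to 0.0011 for Acly), so the numbers were not taken as pairs. With the Y-linked level as a covariate 0 members passed in the LDH set. No call changed direction under the settings run. limma on log2(FPKM + pseudocount) called no member in a knockout comparison. With 3 libraries a group, members near the threshold depend on single libraries, and members on few counts (Mmp10, Timp4, Adamts15) have wide errors. Of the partners, relatives and substrates, 1, 1 and 6 passed in the LDH set and 0, 0 and 3 in the Acly set. DESeq2 gave 2, 2 and 8 for LDH, 1, 1 and 5 for Acly, and 1, 0 and 2 against 0 for the difference. limma on FPKM gave 0 partners and 0 relatives for LDH, the Y-linked covariate 0 of each list for LDH, the replicate block 2 partners and 0 relatives for LDH, no filter 2 partners for LDH, and all 12 samples in 1 fit 2 relatives for LDH (Adamtsl1 and Adamtsl5, not Adam12) and 1 substrate for Acly. Left-out libraries gave 0 to 2 partners, 0 to 1 relatives and 3 to 7 substrates for LDH, 0 to 4 substrates for Acly and 0 to 2 partners for the difference. Over all genes, calls in the LDH set ran from 3 (Y-linked covariate) to 1068 (without knockout replicate 3) against 332, in the Acly set from 0 (without Acly control replicate 1 or 3) to 247 (DESeq2) against 19, and for the difference from 5 (replicate block, or without Acly control replicate 3) to 213 (DESeq2) against 23.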

Other observations

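Within the LDH knockouts, replicate 2 was the highest of the 3 libraries for each tested MMP of the chromosome 9 cluster. It held 957 CPM of Mmp3 against 717 and 418 CPM in replicates 1 and 3, 17.7 CPM of Mmp8 against 5.27 and 3.45, 30.1 CPM of Mmp12 against 11.9 and 22.3, and 2.16 CPM of Mmp10 against 1.54 and 1.12. The neutrophil marker list was also highest there, at 10.4 CPM against 5.19 and 3.34, as was the macrophage list, at 63.1 CPM against 40.7 and 42.7. The chondrocyte list was highest there too, at 28918 CPM against 21691 and 19206. So were the adipocyte list (54.4 against 28.2 and 13.4 CPM) and the osteoclast list (100.1 against 89.3 and 80.8 CPM). The endothelial, skeletal muscle, fibroblast and osteoblast lists were not highest in that library. Among the Acly knockouts, replicate 2 was highest for Mmp3, Mmp8 and Mmp12, while its macrophage list was the lowest of the 3, at 129 CPM against 185 and 174, and its neutrophil list the highest, at 2.80 CPM against 0.637 and 2.12. These patterns were seen after the values were examined, and the part of those cells in them was not tested.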
